A study of Mus musculus with 28 samples.

Results

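*H19*, *Dlk1*, *Meg3*, *Peg3*, *Plagl1*, *Cdkn1c*, *Mest*, *Grb10* and *Ndn* are imprinted genes with known roles in fetal growth. These 9 were taken by symbol, without a cut on measured values but with earlier results of these data known. All 9 were found in the bulk count table, which lists 56980 genes, and in the single-cell tables, which list 32285 genes. In the bulk table all 9 passed the filter on low counts (100 or more normalized counts on average across the 25 libraries), which left 12673 genes tested. *H19* and *Dlk1* passed it only through the fistula libraries, since their mean normalized counts in contralateral veins were 10.5 and 3.20, so counts and medians over the 9 genes are given as a description.

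The study followed jugular veins of C57BL/6 mice after they were joined to the carotid artery as an arteriovenous fistula (AVF), the vascular access used for haemodialysis. All mice, male and female, first underwent 5/6 nephrectomy to give chronic kidney disease, so the contralateral jugular veins that served as controls came from uremic animals too, and the labels do not tie a contralateral vein to an AVF. Bulk RNA-seq covered 7 contralateral veins (5 female, 2 male), 8 early AVFs at nominal day 3 (3 female, 5 male), 5 mid AVFs at day 10 (3 female, 2 male) and 5 late AVFs at day 21 (3 female, 2 male), with 1 vessel per library. Single-cell RNA-seq covered 1 library per group (contralateral, early AVF, late AVF), each from 10 vessels of males and females pooled, so the single-cell values have no replicates and no test. The paper reports later mean harvest days for the early and late single-cell AVFs than for the bulk ones. Early and late therefore do not name the same times in the 2 data types. It also reports that harvest days varied within each AVF group, which the nominal days do not show.

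At an imprinted gene only the copy inherited from one parent is normally read, because a methylation mark set in the egg or sperm silences the other. *H19*, *Meg3*, *Cdkn1c* and, in most tissues, *Grb10* are read from the maternal copy, while *Dlk1*, *Peg3*, *Plagl1*, *Mest* and *Ndn* are read from the paternal copy. Many of these genes are abundant in the fetus, decline after birth, and are known to be re-expressed in regenerating tissue such as injured muscle. The files give total RNA per gene, so which parental copy was read was not measured.

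The 9 genes lie on 5 mouse chromosomes (GRCm38 coordinates from the matching annotation). *H19* (ENSMUSG00000000031, chr7:142575529-142578143, minus strand) and *Meg3* (ENSMUSG00000021268, chr12:109541001-109571726, plus strand) are long noncoding RNAs, and *Dlk1* (ENSMUSG00000040856, chr12:109452823-109463336, plus strand) lies upstream of *Meg3* in the same imprinted domain. *Cdkn1c* (ENSMUSG00000037664, chr7:143458339-143461050, minus strand) sits near *H19* on distal chromosome 7, where *Peg3* (ENSMUSG00000002265, chr7:6703892-6730431, minus strand) and *Ndn* (ENSMUSG00000033585, chr7:62346569-62350262, plus strand) lie far from it. *Plagl1* (ENSMUSG00000019817) is at chr10:13060504-13131694 on the plus strand, *Mest* (ENSMUSG00000051855) at chr6:30723547-30748465 on the plus strand and *Grb10* (ENSMUSG00000020176) at chr11:11930508-12038683 on the minus strand. Whether reads were counted by strand is not given in the sources used here, so reads of *Mest* and *Copg2*, which share 912 exonic bases on opposite strands, of *Cdkn1c* and *Gm44732* (625 bases), and of *Meg3* and *Gm26906* (1228 bases) cannot be told apart in the overlaps.

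An exon of *H19* holds the precursor of miR-675, so the most changed of the 9 transcripts is also a microRNA host. The mature RefSeq sequences of both arms are printed here with the seed (bases 2 to 8) in capitals. Mature microRNAs were not measured, and the 2 arms do not share a seed.
mmu-miR-675-5p: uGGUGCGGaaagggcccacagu
mmu-miR-675-3p: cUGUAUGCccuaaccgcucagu

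The promoters of *Dlk1* and *Meg3* are printed because the genes share a domain and are read from opposite parental copies. Each covers 250 bases before to 50 bases after a RefSeq transcription start (GRCm38.p6), and capitals mark the cAMP response element TGACGTCA and the TATA box TATAAA, searched on both strands.
Dlk1 promoter (chr12:109452573-109452872, plus strand): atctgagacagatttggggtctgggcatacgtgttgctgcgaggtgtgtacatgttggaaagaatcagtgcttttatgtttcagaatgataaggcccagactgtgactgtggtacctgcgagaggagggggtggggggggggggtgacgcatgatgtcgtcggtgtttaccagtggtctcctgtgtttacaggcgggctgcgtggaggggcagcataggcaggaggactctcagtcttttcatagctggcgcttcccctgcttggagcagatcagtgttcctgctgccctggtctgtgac
Meg3 promoter (chr12:109540746-109541045, plus strand): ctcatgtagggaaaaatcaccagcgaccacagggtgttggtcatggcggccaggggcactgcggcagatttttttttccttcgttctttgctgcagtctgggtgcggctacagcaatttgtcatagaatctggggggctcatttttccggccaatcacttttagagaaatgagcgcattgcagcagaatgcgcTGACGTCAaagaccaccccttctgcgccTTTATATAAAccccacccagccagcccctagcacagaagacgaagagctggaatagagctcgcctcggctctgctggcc
The *Meg3* window held 1 response element and a TATA box, and the *Dlk1* window held neither. Of 11 promoters found for 7 of the 9 genes, 2 held the response element (the other is that of *Peg3*) and 1 the TATA box, against 1.79% and 13.6% of 32851 promoters of the same length. The matches are a description of these windows only.

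Bulk libraries held 20254173 to 67457501 assigned reads. Libraries of a group differed beyond sampling noise in every pair (69 pairs, lowest chi-square per degree of freedom 48.7). Contralateral pairs were the least alike, with Spearman correlations of counts from 0.398 to 0.837, against 0.811 to 0.970 between early AVFs. Among early AVFs, libraries 6, 7 and 5 had the least fibroblast RNA, with 8 fibroblast markers summing to 3491, 2387 and 6093 CPM (reads of a gene scaled to the library total) against 12561 to 20539 in the other 5, and 3 AVF libraries (early 1, mid 12, late 19) carried parathyroid RNA (2303 to 18636 CPM over 4 markers). In whole vessels, fewer cells of a type and less RNA per cell cannot be told apart.

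In bulk RNA, *H19* and *Dlk1* rose from near 0 in contralateral veins, and the other 7 genes changed less or did not pass the test. Called means an adjusted p under 0.01 with at least a 2-fold change (edgeR's quasi-likelihood test with Benjamini-Hochberg adjustment over all genes tested). Of the 9 genes, 2 were called higher early, 2 mid and 1 late, beside 6.17%, 2.74% and 2.49% of all genes. None was called lower with both sexes in the fit, beside 6.45%, 3.31% and 2.85% of all genes. At an adjusted p under 0.05 the counts of higher genes were 4, 4 and 2, beside 9.66%, 4.88% and 4.59%. The median log2 fold change of the 9 was 1.26 early, 1.71 mid and 0.65 late, where the median of all genes was -0.01, -0.10 and -0.09. Every AVF library lay above every contralateral library for 1 gene early (*H19*), 4 genes mid (*H19*, *Dlk1*, *Plagl1*, *Grb10*) and 2 genes late (*H19*, *Dlk1*), as was the case for 4.47%, 7.32% and 6.25% of all genes.

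**Figure D1:**
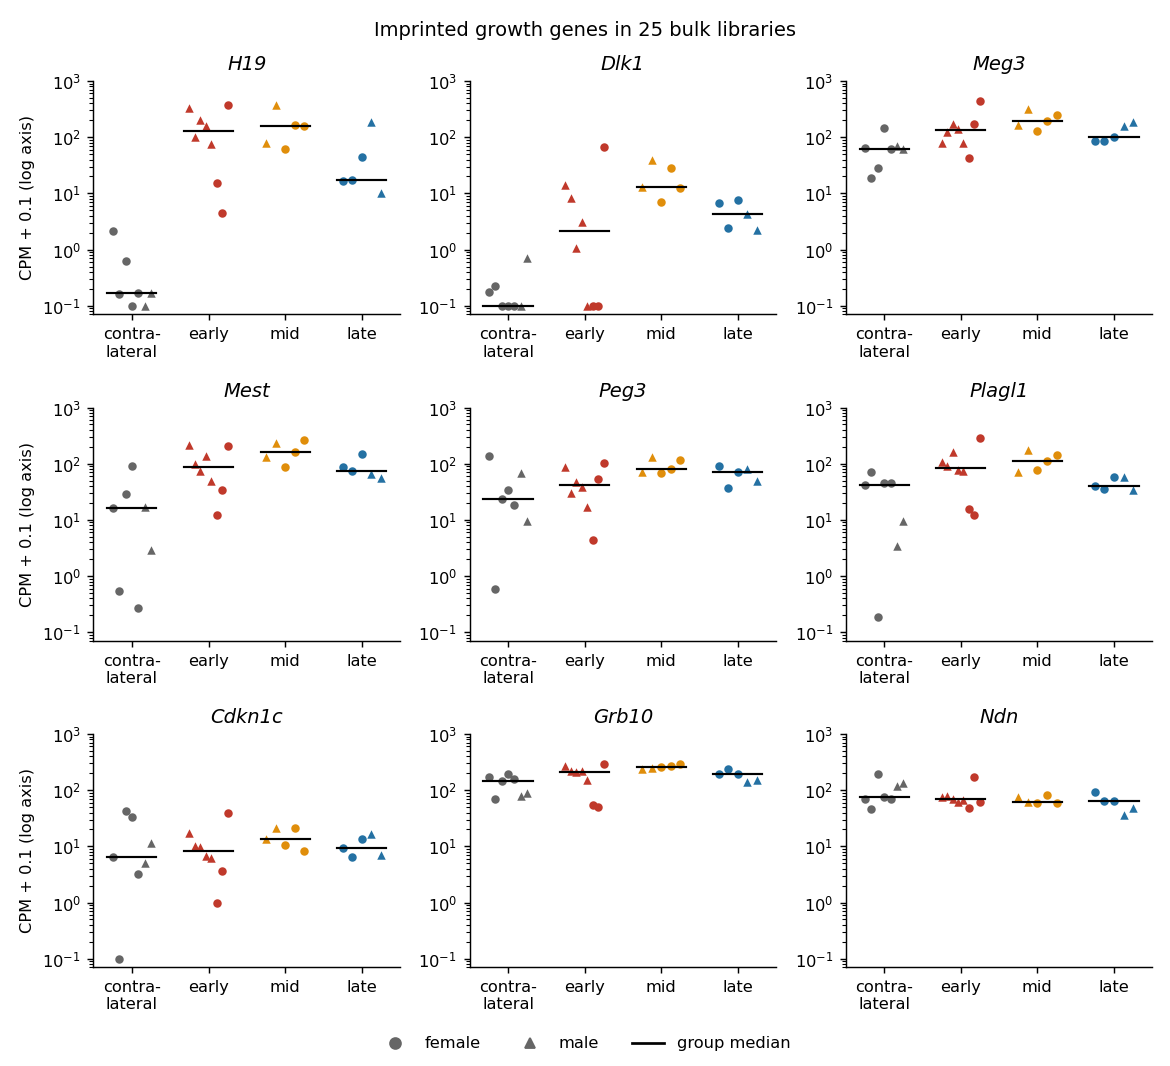
CPM of the 9 genes in each of 25 bulk libraries on a log axis after adding 0.1, by group (circles female, triangles male, line the group median). *H19* was above its highest contralateral value (2.02 CPM) in all 18 AVF libraries, whereas *Cdkn1c*, *Peg3* and *Ndn* overlapped between groups.

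*H19*, a noncoding RNA that restrains fetal growth, showed the largest change of the 9. In contralateral veins its lowest level was 0, its median 0.0690 and its highest 2.02 CPM, and that highest library (27) held 51 of the reads. Early AVFs ranged from 4.30 to 379 CPM with a median of 129. Mid AVFs stood at 79.3, 367, 61.7, 163 and 160 CPM, and late AVFs at 16.4, 17.5, 44.3, 185 and 9.95 CPM. The contralateral and AVF ranges did not overlap at any time. The log2 fold change was 8.63 ± 1.21 (SE) early (adjusted p = 7.09e-06, n = 8 against 7), 8.70 ± 1.23 mid (adjusted p = 2.24e-05, n = 5 against 7) and 7.09 ± 1.16 late (adjusted p = 0.000185, n = 5 against 7). With fewer libraries in the fit the adjusted p passed 0.01 in females alone (0.0102 mid, 0.0416 late), in males alone (0.011 late) and with only late and contralateral libraries (0.0123), each with a log2 fold change of at least 5.60.

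*Dlk1* encodes a membrane protein of the Delta-like family that lacks the usual Notch-binding domain and marks progenitors of fat and muscle. It was at 0 in 4 of 7 contralateral veins and reached 0.621 CPM (18 reads) in the highest. Early AVFs were split, with 0 in libraries 5, 6 and 7, 0.954 to 14.1 CPM in libraries 1 to 4, and 66.1 CPM in library 10. Mid AVFs held 13.1, 39.2, 7.00, 27.8 and 12.2 CPM and late AVFs 6.70, 2.32, 7.52, 4.19 and 2.16 CPM, all above the contralateral range. The log2 fold change was 6.54 ± 1.67 (SE) early (adjusted p = 0.00515, n = 8 against 7), 7.32 ± 1.77 mid (adjusted p = 0.0061, n = 5 against 7) and 5.21 ± 1.62 late (adjusted p = 0.0361, n = 5 against 7, not called). The call depended on single libraries: *Dlk1* was no longer called early without contralateral library 27 or 35 or early library 10, nor mid without contralateral library 27, 34 or 35 or mid library 12, 14 or 15. It was called at neither time when the 3 parathyroid-rich libraries were left out (adjusted p = 0.0137 early and 0.0259 mid).

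*Meg3*, the maternally read noncoding RNA downstream of *Dlk1*, was already abundant in contralateral veins, at 18.6 to 146 CPM with a median of 62.7. Early AVFs held 42.6 to 437 CPM, mid AVFs 167, 321, 131, 192 and 249 CPM, and late AVFs 85.1, 86.9, 103, 161 and 184 CPM. Above the highest contralateral vein lay 3 of 8 early, 4 of 5 mid and 2 of 5 late libraries. The log2 difference was 1.26 ± 0.42 (SE) early (adjusted p = 0.0283), 1.71 ± 0.46 mid (adjusted p = 0.013) and 0.94 ± 0.46 late (adjusted p = 0.199), none of them called at 0.01.

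*Mest*, a paternally read gene for a hydrolase-like membrane protein linked to fetal growth and fat expansion, spread widely among controls, from 0.175 to 91.4 CPM with a median of 15.9. It stood at 12.2 to 213 CPM early, at 134, 233, 87.7, 164 and 263 CPM mid, and at 85.7, 75.1, 150, 64.9 and 55.7 CPM late. In AVFs 4 of 8, 4 of 5 and 1 of 5 libraries lay above the contralateral range. The log2 difference was 2.20 ± 0.79 (SE) early (adjusted p = 0.0458), 2.98 ± 0.87 mid (adjusted p = 0.0235) and 1.95 ± 0.85 late (adjusted p = 0.146), none called.

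*Plagl1* and *Peg3* encode zinc finger transcription factors, the first an inducer of cell cycle arrest that also regulates other imprinted genes, the second a regulator of p53 and TNF responses. *Plagl1* ranged from 0.0876 to 71.4 CPM in contralateral veins, from 12.3 to 285 CPM early, from 72.2 to 173 CPM mid and from 34.4 to 58.6 CPM late. All 5 mid libraries, 6 of 8 early libraries and no late library lay above the contralateral range, yet the log2 differences of 1.75 ± 0.72 (SE) early (adjusted p = 0.0818) and 1.91 ± 0.78 mid (adjusted p = 0.112) were not called. *Peg3* overlapped throughout, with 0.50 to 138 CPM in contralateral veins and 4.26 to 129 CPM over all AVFs, and its log2 difference was 0.20 early, 1.16 mid and 0.65 late (lowest adjusted p = 0.323, mid).

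*Cdkn1c* (p57), *Grb10* and *Ndn* (necdin) all restrain growth, as an inhibitor of cyclin-dependent kinases, as an adaptor that dampens insulin and IGF1 receptor signalling, and as a MAGE-family repressor of proliferation. *Grb10* ranged from 68.9 to 197 CPM in contralateral veins and stood between 242 and 288 CPM in the 5 mid AVFs, above every control (log2 difference 1.00 ± 0.35 SE, adjusted p = 0.0594, not called). Early AVFs fell on both sides of the control range for *Grb10*, with 5 of 8 above it and libraries 6 and 7, at 54.2 and 50.5 CPM, below it. *Cdkn1c* overlapped at every time (contralateral 0 to 41.9 CPM, AVFs 0.896 to 38.9 CPM, log2 difference -0.31 early, 0.07 mid and -0.46 late). *Ndn* was the only one of the 9 with a lower estimate at all 3 times, at -0.35, -0.60 and -0.72 (adjusted p = 0.442, 0.290 and 0.192), and 1 late library lay below the control range. In males alone it was called lower late, at -1.72 (adjusted p = 0.00463, 2 late AVFs against 2 controls, edgeR).

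**Figure D2:**
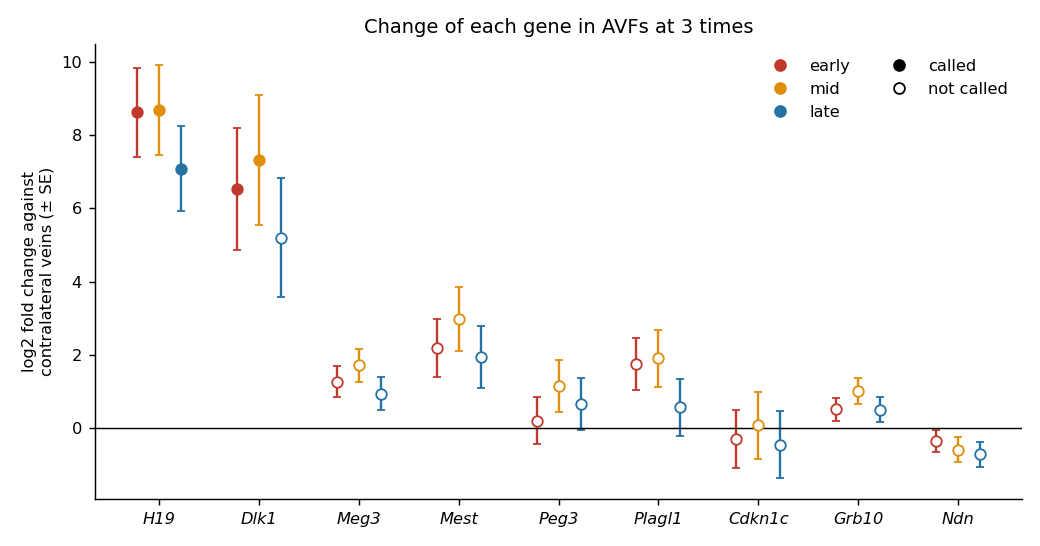
Log2 fold change (± SE) of each gene in early, mid and late AVFs against contralateral veins, with filled points where a gene was called. *H19* was called at all 3 times and *Dlk1* early and mid, while the estimates of *Cdkn1c* and *Ndn* lay between -0.72 and 0.07.

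Between AVF times no member was called, at an adjusted p under 0.01 or at an unadjusted p under 0.05, and DESeq2 called 0 as well. All genes called in either direction made up 0.00789% for mid against early, 3.01% for late against early and 0% for late against mid. All 9 genes had lower estimates in late than in mid AVFs (*Ndn* turned to 0.18 in females alone), by a median log2 difference of -0.77 (all genes -0.00), with *Dlk1* at -2.12, *H19* at -1.61, *Plagl1* at -1.34 and *Mest* at -1.03 (adjusted p = 1 for each). *Plagl1* and *Grb10* were lower in every late library than in every mid library, as were 1.06% of all genes. Over the 4 groups together *H19* was called (adjusted p = 5.77e-05), as were 14.2% of all genes, and *Dlk1* (0.0176), *Meg3* (0.0361) and *Mest* (0.0736) were not.

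Levels can be set against each other only per length, as CPM per kilobase of exon. In contralateral veins the order was *Ndn* (27.3), *Grb10* (14.3), *Cdkn1c* (7.02), *Mest* (5.68), *Plagl1* (3.95), *Meg3* (3.57), *Peg3* (3.12), *H19* (0.159) and *Dlk1* (0.0208), with every step within the larger SD of the neighbours. In mid AVFs *H19* (67.6) and *Mest* (44.7) stood first, ahead of *Grb10* (28.7) and *Ndn* (18.1), and the step from *Grb10* to *Ndn* exceeded their SDs. *Dlk1* stayed last in every group, at 2.04 early, 3.51 mid and 0.809 late.

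Among AVF groups, early libraries differed most among themselves. Contralateral libraries spread wider still for *Plagl1*, *Mest*, *Peg3* and *Ndn*. Their highest over lowest values were 815, 522, 276 and 4.11-fold, against 23.2, 17.4, 24.6 and 3.60-fold early. *Meg3* and *Grb10* went the other way (7.86 and 2.86-fold against 10.2 and 5.75-fold early). Early library 6 was among the lowest 2 of 8 for all 9 genes and library 7 for 6 of them. Library 10 was highest for 7, so that for *H19* the early libraries spanned 4.30 to 379 CPM. These were also the libraries with the least (6 and 7) and the most (10) fibroblast marker RNA, and its part in the spread was not tested. No gene passed an adjusted p under 0.05 for a sex by group term, the lowest being 0.499 for *Grb10* early, and 1 gene had an unadjusted p under 0.05.

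Markers of other tissues were also higher in AVF groups, and their part in the levels of the 9 genes was not tested. The sum of 5 muscle progenitor markers was 0 to 3.69 CPM in contralateral veins, where *Pax7*, *Myod1* and *Chodl* were at 0, and 0 to 23.5 early, 10.4 to 38.4 mid and 9.90 to 25.9 late. Skeletal muscle markers (6) went from 0.210 to 30.9 CPM in controls to 5.13 to 4151 early, 584 to 6110 mid and 5.87 to 8131 late, and 5 cartilage markers from at most 0.175 CPM to at most 62.6 CPM. In mid AVFs, skeletal muscle markers and *H19* put the libraries in the same order. Library 12 was highest (6110 CPM of markers, 367 of *H19*) and library 13 lowest (584 and 61.7). Early libraries 10 and 1 and late library 23 were also the highest of their groups in both. Early library 6 went the other way, with 452 CPM of markers and 15.5 CPM of *H19*. A few AVF libraries stayed within the control range for muscle markers of either kind. Early library 5 had no muscle progenitor marker reads and skeletal muscle markers within the control range, and held 74.3 CPM of *H19* and 0 of *Dlk1*. Early library 3 had muscle progenitor markers within the control range with 204 CPM of *H19* and 0.954 CPM of *Dlk1*, and early library 7 and late library 17 had skeletal muscle markers within it with 4.30 and 17.5 CPM of *H19*. All 4 lay above the highest contralateral *H19* value.

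Single-cell libraries kept 16893 of 26438 barcodes (6319 contralateral, 4753 early, 5821 late), with a median of 2751, 8951 and 15425 unique molecular identifiers (UMIs) per cell. No more than 6 barcodes were shared by any pair of libraries. Cells were clustered, and a cluster was called fibroblast-like or the like from fixed markers. Intervals are exact Poisson 95% intervals and cover counting error only. Doublets were not removed, since the caller marked 0%, 0.0421% and 2.06% of cells and so did not work in 2 of the libraries. Fibroblast-like cells numbered 1842, 421 and 1975, and different clusters held them: contralateral cells were mostly in a cluster led by *Inmt*, *Dcn* and *Sfrp2* (1736 cells), and AVF cells in a cluster led by *Ptx3*, *Serping1* and *Saa3* (419 early, 1942 late).

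In the early AVF library, fibroblast-like cells carried most of the RNA of 8 of the 9 genes. They made up 8.86% of cells and held 91.9% of all *H19* UMIs, 95.5% of *Dlk1*, 87.8% of *Meg3*, 82.7% of *Plagl1* and 76.8% to 79.2% of *Mest*, *Cdkn1c*, *Ndn* and *Grb10*, but 43.6% of *Peg3*. In the contralateral library the same class was 29.2% of cells and gave 62.2% of *H19* and 73.3% of *Dlk1* UMIs, of which there were few. Fibroblast-like cells of both libraries held more UMIs per cell than the library median, so their share of all UMIs exceeded their share of cells.

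Within fibroblast-like cells, 7 genes were above and 2 below the contralateral level early, and 5 above and 4 below late. A gene counts here if its ratio interval, which covers counting error only, excludes 1. No share over all genes stands beside these counts, so they are a description and not a trait of the 9 genes. *H19* stood at 4.33 CPM in contralateral cells (56 UMIs), 553 CPM in early cells (6503 UMIs) and 39.8 CPM in late cells. That is 128-fold early (95% interval 98.3 to 169) and 9.19-fold late (7.05 to 12.2). *Dlk1* stood at 4.25, 155 and 6.95 CPM, or 36.4-fold early (27.8 to 48.5) and 1.64-fold late (1.23 to 2.22), so both genes were far lower in the late than in the early library. The contralateral levels rest on few cells, since 15 cells held *H19*, 1 of them with 21 of the UMIs, and 7 held *Dlk1*, 1 of them with 22 of 55 UMIs. *Meg3* went from 875 to 2013 CPM early (2.30-fold, 2.25 to 2.35) and stood at 937 CPM late.

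Growth-restraining and transcription factor genes did not follow 1 course in these cells. *Plagl1* was at 28.0, 206 and 104 CPM (7.36-fold early, 3.71-fold late) and *Cdkn1c* at 48.0, 223 and 105 CPM (4.65-fold early, 2.20-fold late). *Cdkn1c* showed no such difference in whole vessels, which were harvested at earlier mean days. *Mest* was at 37.5, 159 and 27.5 CPM, above the contralateral level early (4.22-fold) and below it late (0.732-fold). *Ndn* (129, 63.9 and 57.8 CPM) and *Peg3* (92.3, 29.9 and 25.2 CPM) were lower in both AVF libraries, at 0.495-fold and 0.323-fold early. *Grb10* stayed nearest to its contralateral level early, at 1.10-fold (1.04 to 1.18). With at least 500 genes required per cell, the cells were clustered and named again, and the class then held 125 early cells. The early ratios of *Mest* and *Grb10* in this different set of cells were 0.712 and 0.818. Under that filter *H19* was 68.2-fold (52.1 to 91.0), *Dlk1* 10.1-fold, *Plagl1* 3.89-fold and *Cdkn1c* 2.90-fold higher early.

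**Figure D3:**
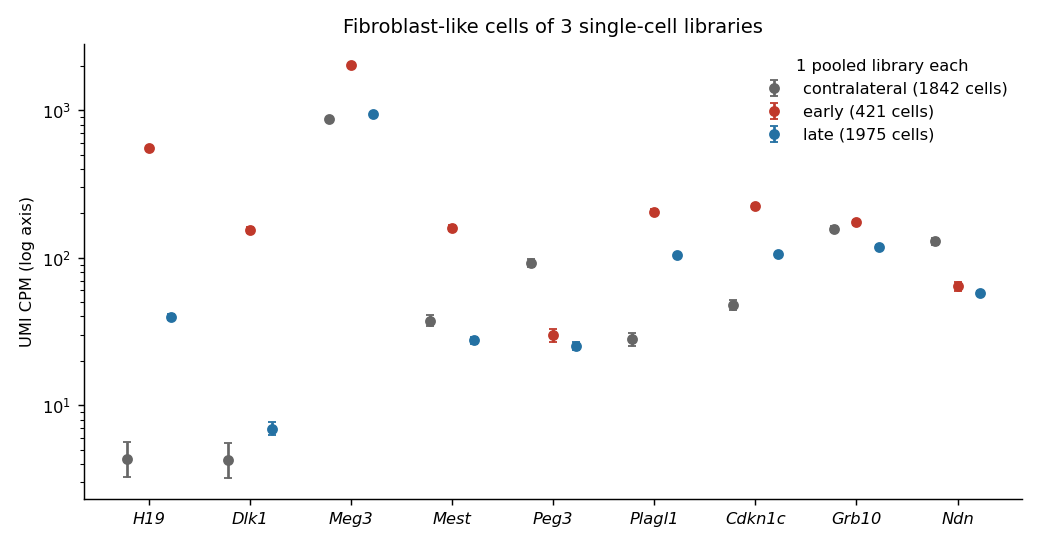
UMI CPM of the 9 genes in fibroblast-like cells of 3 pooled single-cell libraries on a log axis, with exact Poisson 95% intervals. *H19* was at 553 CPM early against 4.33 in contralateral cells, while *Peg3* and *Ndn* were lower in both AVF libraries.

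The other 6 classes of the heat map held no more than 16.4 CPM of *H19* in the early library, while *Mest* and *Meg3* had a pattern of their own in endothelial-like cells. Of early fibroblast-like cells, 51.5% held an *H19* UMI (median 31585 UMIs per cell), against 5.39% of T cell-like cells (median 5601) and 8.66% of mono/macro-like cells (median 13052). Levels there were 7.14 and 6.89 CPM. For *Dlk1* the shares were 16.9%, 3.59% and 2.48%. In endothelial-like cells (786 contralateral, 68 early, 75 late) *Mest* stood at 19.7, 292 and 44.9 CPM, 14.8-fold higher early (11 to 20.2, from 199 UMIs in 26 of 68 cells), and *Meg3* at 29.5, 158 and 160 CPM, 5.37-fold higher early (4.01 to 7.20). *Cdkn1c* went the other way there, from 49.9 to 11.7 CPM early and 17.6 CPM late. Mural-like cells (31, 220 and 501) held *Meg3* at 288, 318 and 365 CPM and *H19* at no more than 6.39 CPM.

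**Figure D4:**
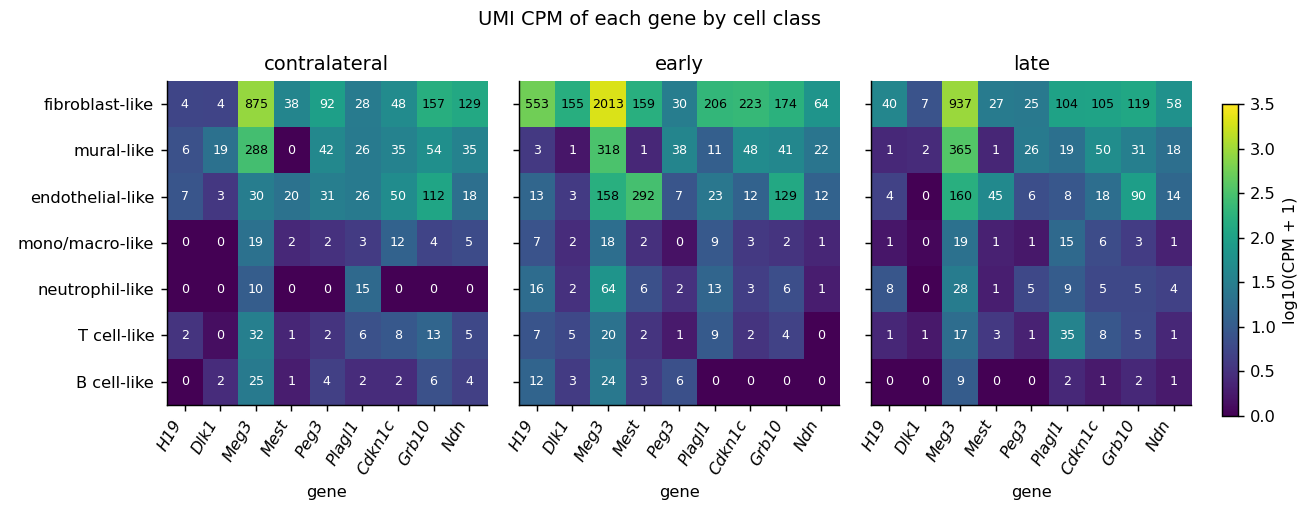
UMI CPM of each gene (columns) in 7 cell classes (rows) of the contralateral, early and late libraries, coloured on a log10 scale with the CPM printed. *H19* and *Dlk1* were highest in early fibroblast-like cells (553 and 155 CPM), and *Mest* reached 292 CPM in early endothelial-like cells.

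Among early fibroblast-like cells the RNA was unevenly spread. The 43 cells richest in a gene held 98.2% of *Dlk1*, 90.3% of *Mest* and 70.0% of *H19* UMIs, but 30.2% of *Meg3* and 32.2% of *Grb10* UMIs, and single cells reached 251 *H19* and 207 *Dlk1* UMIs. The 71 cells with a *Dlk1* UMI were compared with the 350 without, at like depth (medians of 32347 and 31322.5 UMIs). Those with *Dlk1* were higher in the other 8 genes. *H19* was at 1280 against 389 CPM, *Meg3* at 2999 against 1789, *Plagl1* at 443 against 152, *Cdkn1c* at 481 against 165 and *Mest* at 495 against 82.4 CPM. *H19* was present in 85.9% of cells with *Dlk1* and 44.6% of those without. Late cells showed the same order at lower levels, for example *H19* at 102 CPM in 77 cells with *Dlk1* and 36.6 CPM in 1898 without, though there the depths differed (medians of 32189 and 24826.5 UMIs).

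**Figure D5:**
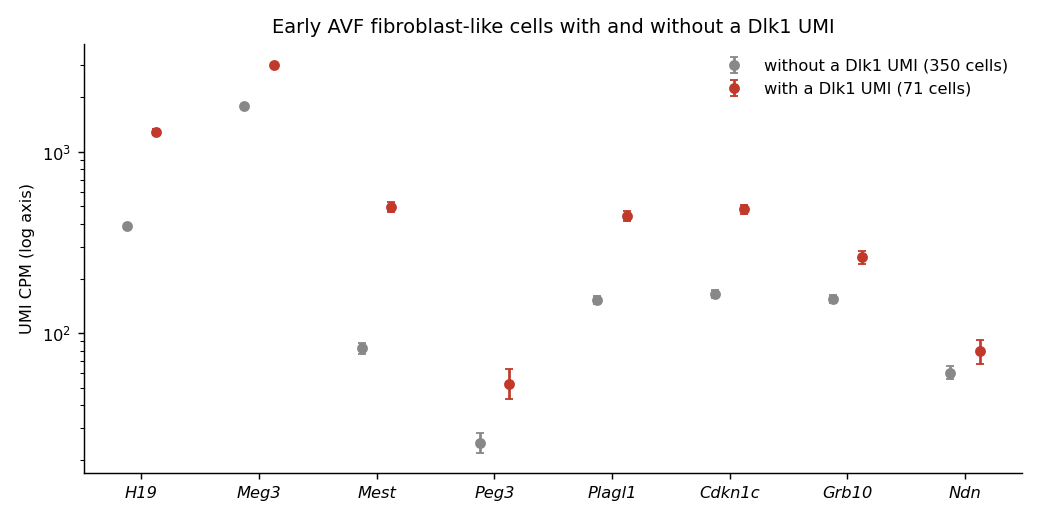
UMI CPM of the other 8 genes in early fibroblast-like cells with (71) and without (350) a *Dlk1* UMI on a log axis, with exact Poisson 95% intervals. All 8 were higher in cells with *Dlk1*, from 79.3 against 60.4 CPM for *Ndn* to 495 against 82.4 CPM for *Mest*.

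Cells with a transcript of *Mki67* or *Top2a*, genes of dividing cells, were not set apart in 1 direction. Among early fibroblast-like cells, the 94 with such a transcript held *H19* at 765 CPM and *Dlk1* at 269 CPM, against 488 and 119 CPM in the 327 without. *Mest* was lower in them, at 49.0 against 192 CPM, and *Cdkn1c* alike, at 234 against 220 CPM with intervals that overlapped. In the late library *H19* was lower in dividing cells, at 19.4 against 41.5 CPM.

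Muscle progenitor RNA was nearly absent from these cells. *Pax7* and *Myf5* had 0 UMIs in fibroblast-like cells of all 3 libraries (0.285, 0.314 and 0.0735 CPM are the upper 95% limits). *Myod1* had 0, 6 and 1 UMIs. The class was named from fibroblast markers, so these counts cannot tell what part muscle progenitors had in *H19* levels, which was not tested. Over the libraries together, muscle progenitor markers summed to 1.46 CPM in fibroblast-like, 18.3 CPM in Schwann-like and 27.5 CPM in cells of clusters given no name. In the early library those classes held 6503, 0 and 261 *H19* UMIs.

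Neighbours in the imprinted domains moved only in part with the 9 genes. Of 32 listed neighbours 15 were tested, of which 2 were called higher (*Rian*, *Ddc*) and 1 lower (*Phactr2*) early, 1 lower mid (*Phactr2*) and none late. Their early median log2 difference was -0.09, against -0.01 for all genes. *Rian*, a noncoding RNA read from the maternal copy downstream of *Meg3*, stood at 12.3 ± 12.0 CPM (SD, n = 7) in contralateral veins and 65.8 ± 45.3 (n = 8), 75.2 ± 27.7 (n = 5) and 50.6 ± 11.6 (n = 5) CPM early, mid and late. Its log2 fold change was 2.42 ± 0.63 (SE) early (adjusted p = 0.00578, called) and 2.62 ± 0.67 mid (adjusted p = 0.0102, not called). *Phactr2*, next to *Plagl1*, fell by 1.81 on the log2 scale early (adjusted p = 0.000136) and by 1.44 mid (adjusted p = 0.00967). *Ddc*, next to *Grb10*, was at 39.6 ± 99.4 CPM (SD, n = 8) early (adjusted p = 0.00194). *Igf2*, the paternally read growth factor gene beside *H19*, stayed at no more than 0.175 CPM in any group mean and was below the filter.

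The same domain was followed in fibroblast-like cells. *Rian* stood at 239, 486 and 270 CPM in the contralateral, early and late libraries and *Mirg*, another noncoding RNA of that domain, at 17.8, 62.8 and 57.1 CPM. *Rtl1*, a paternally read gene between *Meg3* and *Rian*, had 2, 3 and 11 UMIs. *Igf2* was at 6.49, 15.1 and 2.33 CPM, and *Copg2*, which overlaps *Mest*, at 18.0, 8.50 and 10.8 CPM, lower in the early library where *Mest* was higher.

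None of the other imprinted genes was called higher. Of 26 such genes 19 were tested, of which 3 were called lower early, 2 mid and 1 late, with an early median log2 difference of -0.51. *Slc22a3*, an organic cation transporter gene, fell by 3.63 on the log2 scale early (adjusted p = 0.000759), by 4.59 mid (0.00162) and by 4.07 late (0.00433), from 85.0 CPM in contralateral veins. *Sgce*, which encodes epsilon-sarcoglycan, fell by 1.75 early (adjusted p = 2e-05) and by 1.33 mid (0.00429), and *Peg13* fell by 1.57 early (0.00935).

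Partners of the 9 gene products were taken from lists of textbook pathways. None of 12 tested insulin and IGF receptor genes, on which *Grb10* acts, was called at any time. Of 5 CDK inhibitor genes beside *Cdkn1c*, 1 was called, *Cdkn1a* (p21), which rose at all 3 times (47.5 CPM in contralateral veins, 218 early, 185 mid, 157 late; log2 fold change 2.19, 1.96 and 1.72, adjusted p = 2.44e-05, 0.000489 and 0.00204). Of 17 cyclin and cycling genes 5 rose early, among them *Cdk1* (4.61, adjusted p = 0.000532) and *Ccnb1* (4.38, adjusted p = 0.00281), and none was called mid or late, with a list median of 1.87 early, 1.26 mid and 0.81 late. Of 13 Notch pathway genes set beside *Dlk1*, 4 fell early: *Notch3* by 2.29, *Hey2* by 2.15, *Hes1* by 1.32 and *Jag1* by 1.18 on the log2 scale (highest adjusted p = 0.00913). *Hes1* was also called late, at -1.89 (adjusted p = 0.00472). The 8 mural markers, of which *Notch3* is itself 1, moved with these. Their sum went from 3452 to 8238 CPM in contralateral veins to 254 to 742 CPM early, and their part was not tested. Of 10 p53 genes set beside *Peg3*, *Cdkn1a* and *Pmaip1* were called higher early and mid and *Cdkn1a* late. Of 5 zinc finger and MAGE relatives of *Plagl1* and *Ndn*, none was called.

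The genes most like each member over the 25 libraries, by Pearson's r of log2 CPM, were *Eya4* for *H19* (0.932), *Agtr2* for *Dlk1* (0.924), *Rian* for *Meg3* (0.831), *Wdr35* for *Peg3* (0.911), *Ints7* for *Plagl1* (0.901), *Cspp1* for *Cdkn1c* (0.908), *Adam19* for *Mest* (0.892), *Mfap5* for *Grb10* (0.909) and *Scg3* for *Ndn* (0.691). *Eya4* encodes a transcriptional coactivator. The points share their libraries and depth and include 7 controls near 0 for *H19*, so these values are a description.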

How the data were processed

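Bulk RNA-seq libraries were poly(A) ultra-low-input libraries, 1 vessel each, and the deposited table holds raw read counts per gene for 25 libraries. Processing notes of the submitters name STAR, Cell Ranger, mm10 and GRCm38 without roles. Single-cell files hold deposited UMI counts per gene and barcode, made by the authors with Cell Ranger 6.0.2 per the file headers. Ensembl IDs were named from the single-cell feature list (32210 genes) or the reference annotation (19962), and 4808 stayed unnamed. The genes and lists were chosen with earlier results of these data known.

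Counts were tested with edgeR 4.0.16 (TMM, quasi-likelihood F test, all 4 groups in the fit, no covariates) in R 4.3.3 after keeping genes with a mean normalized count of at least 100. Adjusted p-values are Benjamini-Hochberg values over 12673 genes, and called means under 0.01 with a log2 change of at least 1. The labels do not say which mouse a vessel came from, so p-values measure only the spread between these vessels. CPM used TMM library sizes. Named genes were the 9 genes, up to 4 genes per list (those called in most comparisons, ties by the early change), and for each of the 9 the gene most like it by Pearson's r. *Igf2*, *Rtl1*, *Mirg* and *Copg2* were added for their position after their values were seen. The test was tried on simulated counts first.

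Cells with 200 to 6000 detected genes and at most 10% mitochondrial UMIs were kept, scaled, clustered (scanpy 1.11.5, 2000 variable genes, 12 components, Leiden resolution 0.5) and named from fixed markers. UMIs were summed per class and library and given as CPM with exact Poisson 95% intervals. Ratios are of such sums. Alternatives covered normalization, filters, DESeq2 1.42.0, the threshold, the groups in the fit, each sex, omitted libraries, cell filters and resolution.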

Additional observations from a re-analysis of the deposited data

Results flagged for a closer look

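Of 36 sets of values (9 genes in 4 bulk groups), 2 held a library far from the others of its group by Dixon's criterion on log2 CPM. Chance meets this criterion in about 1 of 20 groups. Gaps over range are on the log2 scale, where a prior count of 2 sets the value given to 0 reads. *Cdkn1c* was at 0 CPM in contralateral library 28, where the nearest other control was at 3.08 CPM (gap over range 0.599). *Ndn* was at 172 CPM in early library 7, where the next highest early library was at 77.2 CPM (gap over range 0.627). Library 7 was among the lowest 2 early libraries for 6 of the other 8 genes and had the least fibroblast marker RNA (2387 CPM). It also held 2073 CPM of 5 sympathetic neuron markers, against 18.6 to 81.9 CPM in the other early libraries. The part of either in the *Ndn* value was not tested.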

How the results depend on the processing

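The 9 genes were tested under 35 alternatives. Against contralateral veins 885 of 945 alternative estimates kept direction and call, 21 lost and 22 gained a call, and 17 changed sign. Between AVF times 907 of 945 kept both and 38 changed sign, none of them called. *H19* kept a log2 fold change of 7.97 to 12.05 early (adjusted p = 2.27e-17 to 0.00716), 7.89 to 12.38 mid (8.47e-14 to 0.0102) and 5.60 to 11.16 late (3.38e-09 to 0.0416). *Dlk1* ranged from 4.04 to 9.08 early (5.91e-06 to 0.231), 6.33 to 9.15 mid (1.15e-05 to 0.193) and 3.26 to 7.07 late (0.00372 to 0.442). No paired analysis was possible because the groups share no replicate numbers.

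The number of members called early, mid and late was 2, 2 and 1, beside 1599, 767 and 676 of all 12673 genes in either direction. It was 4, 4 and 2 with DESeq2 (all genes 2410, 1398 and 1278) and at an adjusted p under 0.05 (2520, 1421 and 1304). In both, *Meg3* and *Mest* joined early and mid and *Dlk1* late. Counts of members thus rose where more of all genes were called. It was 1, 1 and 0 when only the groups compared were fitted (all genes 665, 403 and 279) and 1, 0 and 0 in females alone (368, 225 and 204). Without the parathyroid-rich libraries it was 1 early and 1 mid (1274 and 441). Over the 4 groups the count of 1 (all genes 1800) was 3 with DESeq2 (2718) and at 0.05 (2875), and 0 in females alone (238). Males alone gave 3, 2 and 1, but of other genes: *Dlk1* was called at no time, *Plagl1* (3.99, adjusted p = 0.00203) and *Grb10* (1.32, 0.00495) joined *H19* early and *Plagl1* (4.22, 0.00523) mid, and late *Ndn* was called lower (-1.72, 0.00463) while *H19* was not (0.011). Leaving out 1 library at a time gave 1 to 4 genes early (1 without contralateral 27 or 35 or early 10, 4 without contralateral 34), 1 to 3 mid (1 without contralateral 27 or 35 or mid 12, 14 or 15, 3 without contralateral 34, where *Meg3* and *Mest* were gained and *Dlk1* lost, or early 6 or 10), 1 to 1 late, and 1 to 3 over the 4 groups (3 without contralateral 34, 2 without contralateral 633). All genes called early numbered 1587, 1700 and 1606 without contralateral 27, contralateral 35 and early 10, and 1676 without contralateral 34. At mid they numbered 859 and 834 without contralateral 27 and 35, and 609, 534 and 542 without mid 12, 14 and 15. Over the 4 groups they numbered 1836 without contralateral 34 and 1910 without contralateral 633. Counts of all genes are not given here for males alone or for the mid fits that called 3 members. The fits of males alone, without parathyroid-rich libraries and of sex by group were chosen after seeing the data, and sex by group called 1 gene rather than 0 with no filter on low counts.

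Signs changed as follows. In females alone *Grb10* was -0.13 and *Ndn* 0.10 early, *Cdkn1c* -0.30 mid, *H19* -0.080, *Dlk1* -0.51, *Meg3* -0.21 and *Cdkn1c* -0.12 for mid against early, *Mest* 0.32 and *Grb10* 0.66 for late against early, and *Ndn* 0.18 for late against mid. In males alone *Cdkn1c* was 0.26 early, 0.45 late and 0.18 for late against early, and *Meg3* 0.49 for late against early. Without the parathyroid-rich libraries *Cdkn1c* was -0.088 mid, *H19* -0.20 and *Plagl1* -0.023 for mid against early, and *Grb10* 0.077 for late against early. *Grb10* for late against early was 0.060 with filterByExpr, 0.037 with no filter and 0.050 with DESeq2 size factors or DESeq2.

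With 1 library left out at a time, estimates that changed sign ranged, early, from -0.13 to 0.92 for *Peg3* and from -0.98 to 0.27 for *Cdkn1c*. *Cdkn1c* ranged from -0.17 to 0.64 mid and from -0.73 to 0.11 late. For mid against early *H19* ranged from -0.44 to 0.40, *Plagl1* from -0.012 to 0.61 and *Ndn* from -0.32 to 0.022. For late against early *Dlk1* ranged from -1.58 to 0.29, *Meg3* from -0.52 to 0.13, *Cdkn1c* from -0.36 to 0.46 and *Grb10* from -0.15 to 0.15, and for late against mid *Ndn* ranged from -0.33 to 0.032. Early library 10 alone turned *Dlk1*, *Meg3* and *Cdkn1c* for late against early.

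With at least 500 genes per cell, late genes above the contralateral level went from 5 to 3 (4 at up to 20% mitochondrial UMIs), and the fibroblast-like ratios of *Mest* early (0.712), *Grb10* early (0.818) and *Dlk1* late (0.854) were below 1; early *H19* was 68.2 rather than 128 and *Dlk1* 10.1 rather than 36.4. Cells were clustered and named again under that setting, and the class held 125 early cells rather than 421. These ratios therefore come from a different set of cells, not only from the removal of shallow ones. Cause was not tested. Reads near 0 limit the fold changes of *H19* and *Dlk1*, and 1 single-cell library per group limits those values to counting error. Counts of genes above the contralateral level in cells have no share over all genes beside them.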

Other observations

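Fibroblast-like cells were divided further into 10 subclusters after their levels had been seen, so the values are a description. Early cells fell mainly into one led by *Saa3*, *Hp*, *Cxcl5* and *Ptn* (296 cells) and one led by *Thbs4*, *C1qtnf3*, *Cilp* and *Comp* (68 cells). *H19* stood at 637 and 472 CPM in them and *Dlk1* at 175 and 105 CPM, while *Mest* was lower in the first than in the second, at 102 and 435 CPM. Late cells of the same subclusters held *H19* at 44.8 and 31.2 CPM.

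In the contralateral library, a subcluster of 146 cells led by *Pla1a*, *Smpd3* and *Dpp4* held 47 of the 56 *H19* UMIs of the class (31.9 CPM) and *Cdkn1c* at 195 CPM, against 0.678 and 29.2 CPM in the 728 contralateral cells of the subcluster led by *Inmt* and *Fmo2*. Of those *H19* UMIs, no cell of the class held more than 21. The late cells highest in *Cdkn1c* among subclusters of at least 50 cells, at 193 CPM, were also in a subcluster led by *Pla1a* (511 cells), where *H19* was at 83.9 CPM. Late cells of the subcluster led by *Saa3*, *Rnd1* and *Cxcl5* (541 cells) held *H19* at 1.04 CPM, so levels within 1 library differed widely between fibroblast-like subclusters.

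A shallow unnamed cluster led by *Pth* and *Chga* (551 early cells) held *H19* at 168 CPM, *Cdkn1c* at 303 CPM and *Peg3* at 161 CPM in the early library. Its best-scoring class was parathyroid, with 2 markers of that class among its leading genes. It was given no name because only 1 marker was both raised 2-fold and found in at least 10% of its cells, below the minimum of 3.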
